A study of Mus musculus with 54 samples.

Results

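Mammary glands of mice at pregnancy day 14.5 were compared with glands at pregnancy day 12.5, 3 mice a day, which are 6 of the 54 arrays of a series that covers 18 time points from virgin to involuting gland. The arrays were chosen by their titles and every non-control probe set was considered. Mating took place when the mice were 12 weeks old, and the morning on which a plug was seen counted as day 0.5. Each 1-channel Affymetrix array carries total RNA of 1 inguinal gland of 1 mouse, from which the lymph node had been taken out. Both groups received the same handling and no agent, and strain and genotype are not given in the sources used here. A whole gland holds epithelium, fat, connective tissue, vessels and blood, so for every gene below fewer cells of a type and less RNA per cell cannot be told apart.

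In midpregnancy the alveolar epithelium passes from proliferation to secretory differentiation. Progesterone and RANK ligand drive side-branching and alveolar growth, while prolactin, acting through its receptor, the kinase Jak2 and the transcription factor Stat5a, switches on milk genes with the help of the factor Elf5. Caseins are known to come on early in this programme, whey acidic protein later, and alpha-lactalbumin, which completes lactose synthase, among the last. The gland's fat pad and stroma take up a shrinking share of the tissue as alveoli fill it.

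Between the days 13 of 8640 probe sets tested were called (0.15%), 10 higher at day 14.5 (0.116%) and 3 lower (0.0347%), where called means an adjusted p under 0.05 from limma fitted over all 54 arrays with Benjamini-Hochberg adjustment. The largest rises belonged to alpha-lactalbumin (Lalba) and the fatty acid binding protein Fabp3, followed by Cck, Zbtb17, Rgs8, the IgA transporter Pigr and the connexin gene Gjb6. Casein signals were already high at day 12.5 and none of the 4 caseins fixed for description was called. The 5′ ends of 3 of the risen genes and of the beta-casein gene Csn2 are printed because Stat5 binding in the proximal promoter is well known for Csn2. The windows hold the 250 bases before the annotated start in RefSeq (GRCm38.p6, all 4 genes matched), written 5′ to 3′ on the gene's strand. They lie at chr15:98482684-98482933 on the minus strand for Lalba, chr4:130308488-130308737 on the plus strand for Fabp3, chr1:130826434-130826683 on the plus strand for Pigr and chr5:87699426-87699675 on the minus strand for Csn2. Capitals mark TTCNNNGAA, the palindrome that Stat5 binds, TATAAA or CCAAT on either strand.
Lalba: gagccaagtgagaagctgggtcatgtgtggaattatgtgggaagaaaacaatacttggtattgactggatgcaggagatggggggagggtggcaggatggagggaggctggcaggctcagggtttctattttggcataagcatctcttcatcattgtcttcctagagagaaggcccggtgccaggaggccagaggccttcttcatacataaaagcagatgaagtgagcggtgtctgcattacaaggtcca
Fabp3: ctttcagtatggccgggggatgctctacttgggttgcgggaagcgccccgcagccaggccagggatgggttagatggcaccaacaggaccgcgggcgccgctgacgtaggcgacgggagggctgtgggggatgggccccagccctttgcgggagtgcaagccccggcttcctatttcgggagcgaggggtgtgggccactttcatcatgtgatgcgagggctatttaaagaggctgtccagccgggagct
Pigr: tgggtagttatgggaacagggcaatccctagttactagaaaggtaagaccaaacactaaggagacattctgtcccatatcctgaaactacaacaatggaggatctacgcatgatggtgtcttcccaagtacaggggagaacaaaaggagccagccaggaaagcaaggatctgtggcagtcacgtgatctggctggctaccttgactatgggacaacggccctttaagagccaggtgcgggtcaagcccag
Csn2: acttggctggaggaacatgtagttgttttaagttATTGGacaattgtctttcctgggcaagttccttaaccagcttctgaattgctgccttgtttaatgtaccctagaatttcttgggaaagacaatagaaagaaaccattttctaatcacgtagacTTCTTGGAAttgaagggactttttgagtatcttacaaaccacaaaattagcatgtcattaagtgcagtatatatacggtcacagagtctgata
Of these windows, Csn2's holds TTCNNNGAA, starting at position -93 from the start, and CCAAT on the opposite strand from position -216. Among all 32851 promoter windows of the same length, 7.02% hold TTCNNNGAA, 12.4% TATAAA and 33.8% CCAAT. The match is a description of letters, not of a bound site, and the other 3 windows do not hold these letters.

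Lalba, the regulatory subunit that turns galactosyltransferase into lactose synthase, had MAS5 signals (scaled array intensities) of 5, 2.9 and 27.7 in the 3 glands at day 12.5 and 323.8, 194.3 and 355.5 at day 14.5. Every day 14.5 gland lay above every day 12.5 gland. Signals under 9.4 were set to that floor, which 2 of the day 12.5 glands reached, and the difference was then 4.39 ± 0.72 on the log2 scale (SE, 20.9-fold, adjusted p = 6.9e-04, limma). With a floor of 1 the log2 difference was 5.26 and with one at the 40th percentile 3.53, and the call held under both.

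Fabp3, a cytosolic carrier of long-chain fatty acids in muscle and lactating mammary epithelium, read 73.3, 218.4 and 62 at day 12.5 against 1321.3, 807.9 and 879.4 at day 14.5. The highest early gland, B, stayed far below the lowest later one. Its log2 difference was 3.30 ± 0.41 (9.82-fold, limma adjusted p = 4.0e-06), the lowest adjusted p of all. Pigr, the epithelial receptor that carries polymeric IgA into milk, read 438, 447.2 and 554.7 and then 1752.9, 1421.2 and 925. That is 1.47 ± 0.24 on the log2 scale (limma adjusted p = 7.8e-04), and the later glands spread from 925 to 1752.9.

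Gjb6 (connexin 30), a gap junction subunit, had signals of 47.3, 48.5 and 89.2 at day 12.5 and 178.6, 153.9 and 145 at day 14.5 on the called probe set, without overlap. The log2 difference was 1.43 ± 0.28 (limma adjusted p = 0.0084). Its brighter probe set read 116.4, 112.8 and 101.5 and then 311.3, 209.2 and 241, a difference of 1.19 at an adjusted p of 0.0595, and the remaining one lay under the floor in all 6 glands. Both bright probe sets of Gjb6 therefore separated the days.

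Cck, which encodes the peptide hormone cholecystokinin, was under the floor in every day 12.5 gland, at 6, 3.2 and 5.9, and read 69.1, 43 and 26.5 at day 14.5. Against the floor that is at least 4.56-fold higher (limma adjusted p = 0.031). The call was lost with a floor at the 40th percentile, where the log2 difference was 0.91 (adjusted p = 0.963), and without the filter (adjusted p = 0.0554). Fam20c, the secretory pathway kinase that phosphorylates caseins, went from 166.6, 199.1 and 187.7 to 621.6, 307.9 and 357.5. Gland A at day 14.5 stood well above its 2 partners, and the log2 difference was 1.15 ± 0.26 (limma adjusted p = 0.0437).

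Rfk, riboflavin kinase, which makes flavin mononucleotide, rose from 316.1, 363 and 292.8 to 597.1, 555.5 and 517.1, by 0.78 ± 0.18 on the log2 scale (limma adjusted p = 0.0473). Its 2 other probe sets differed by 0.53 and 0.66 in the same direction without being called (adjusted p = 0.395 and 0.863). Rgs8, a regulator of G protein signalling, read 53.5, 45.4 and 24.3 and then 140.5, 94.5 and 114.9, a log2 difference of 1.56 ± 0.35 (limma adjusted p = 0.0466). Its probe set carries the suffix of sets that can bind several members of a gene family, so other transcripts may add to the signal. Zbtb17, which encodes the transcription factor Miz-1, read 16.7, 17.7 and 17.4 and then 53, 71.8 and 50, a log2 difference of 1.74 ± 0.37 (limma adjusted p = 0.031). The 3 early glands agreed closely and all lay below the filter threshold for dim signals of 22.8.

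Sprr1b, a cornified envelope protein of squamous epithelium, was lower at day 14.5, with signals of 1985.7, 1757.7 and 1303.3 falling to 904.6, 1108.8 and 689.5 (log2 difference -0.91 ± 0.20, limma adjusted p = 0.0382). The gene's other probe set lay under the floor in all 6 glands, at 0.3 to 3.8, so the change rests on 1 probe set. These probe sets disagree on the level of the gene, and whether the called signal comes from Sprr1b was not tested. Ddb1, the adaptor of the Cul4 ubiquitin ligase known from DNA repair, read 1181.7, 1278.4 and 1185.2 and then 745.4, 801.4 and 831.2, a log2 difference of -0.62 ± 0.14 (limma adjusted p = 0.0382). This was the smallest change that was called, 1.53-fold. Another tested probe set of Ddb1 went the other way by 0.27 with an adjusted p of 1, from 517.8, 566.2 and 342.1 to 637, 499 and 548, and the remaining one was too dim to be tested.

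The last 2 called probe sets have no gene in the annotation used. Probe set 161227_r_at read 341.1, 336.2 and 299.9 at day 12.5 and 726.6, 692.8 and 642.4 at day 14.5 (log2 difference 1.08 ± 0.16, limma adjusted p = 1.4e-04). Probe set 103989_at fell from 33.7, 24.4 and 26.8 to 9.4, 12.9 and 12 (log2 difference -1.31 ± 0.25, limma adjusted p = 0.0084), and the call was lost with no floor other than 1 (adjusted p = 0.909) and with one at the 40th percentile, where the difference was -0.30 (adjusted p = 0.608). The members just outside the threshold were Gjb6's brighter probe set, Fkbp11, Csn1s2b and Ndrg1 at an adjusted p of 0.0595 and Rgs16 at 0.0597.

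**Figure D1:**
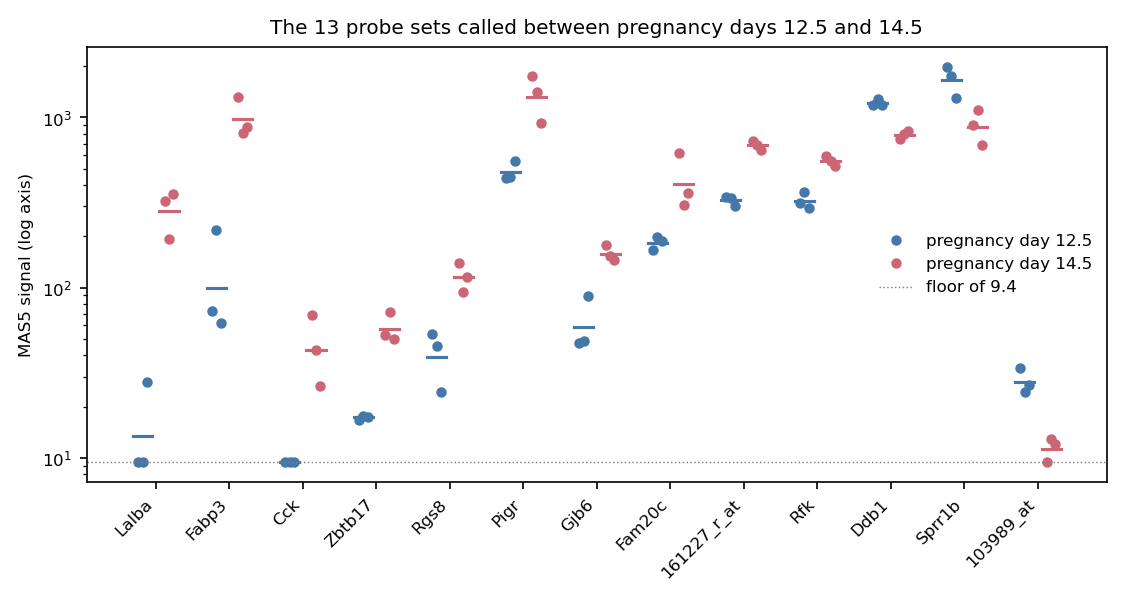
MAS5 signal on a log axis of the 13 called probe sets in each of the 3 glands at pregnancy day 12.5 and day 14.5, with values under 9.4 drawn at that floor and bars at the mean of the logs. The glands of the days do not overlap for any of the 13, and Lalba (20.9-fold) and Fabp3 (9.82-fold) show the largest rises.

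Fabp3, Lalba and 161227_r_at were called whichever of the 6 glands was left out. Pigr kept the call in 5 of 6 such fits, losing it without day 14.5 gland A (adjusted p = 0.0564), and 103989_at in 4, losing it without gland A of either day. Gjb6 kept it in 3 and lost it without gland A or B of day 12.5 or gland A of day 14.5. Sprr1b stayed called without gland C of day 12.5 or gland B of day 14.5, Cck without gland C of day 14.5 and Fam20c without gland B of day 14.5, and each lost the call in the remaining leave-outs. Zbtb17, Rgs8, Rfk and Ddb1 lost it in all 6. With no floor other than 1, only Fabp3, Lalba, 161227_r_at, Pigr and Cck of the 13 stayed called, and Gjb6 had an adjusted p of 1. When limma saw the 6 arrays alone 0 probe sets were called, although 867 then had an unadjusted p under 0.05, and the lowest adjusted p among the 13 was 0.114.

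**Figure D2:**
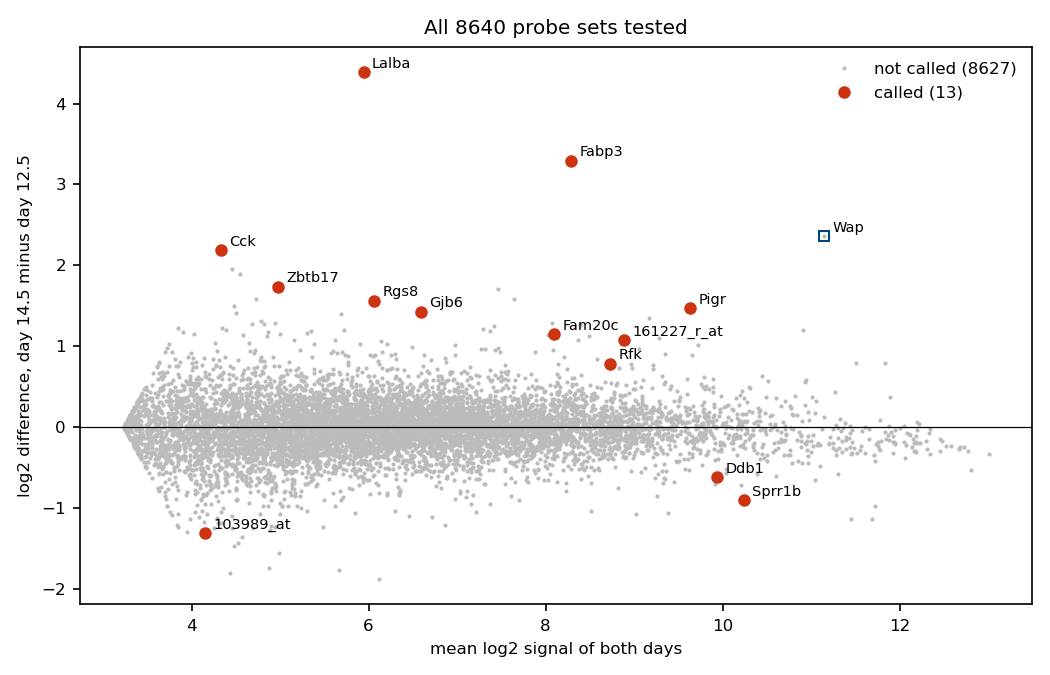
Log2 difference between day 14.5 and day 12.5 against the mean log2 signal of both days for all 8640 probe sets tested, with the 13 called ones in red. Wap, the square, has a larger difference than most called probe sets (2.36) and is not called, and the brightest probe sets lie slightly below 0.

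Across all probe sets the median log2 difference was -0.00585, and 105 differed by more than 1 in size (1.22%). The groups of glands did not overlap for 1309 probe sets (15.2%), 631 higher at day 14.5 (7.3%) and 678 lower (7.85%), and 402 had an unadjusted p under 0.05 (4.65%). The median 95% interval of a difference reached 0.615 to either side, 1.53-fold. That interval is unadjusted and rests on a variance pooled over all time points. A difference at its edge has an unadjusted p of about 0.05. The called probe set with the highest adjusted p, that of Rfk, had an unadjusted p of 7.1e-05 (limma). A 1.53-fold change in a typical probe set would therefore not have been called. Probe sets with a mean signal over 3000 were lower at day 14.5 in 63 of 71 cases, with a median of -0.19. Pearson r over probe sets ran from 0.947 to 0.975 between glands of the same day and from 0.949 to 0.971 between glands of different days. Ratios of 3′ to 5′ beta-actin probe sets, a measure of RNA integrity, ran from 2.61 to 3.04 at day 12.5 and from 2.11 to 3.3 at day 14.5, and array medians from 34.2 to 36.4 and from 33.3 to 35.9. Arl2bp, whose signal takes 2 levels in the series, was at the low one in all 6 glands, from 89.5 to 96.4 and from 69.3 to 87.8. Glo1, also fixed for description, had means of 498.2 and 464.6 on its brighter probe set, with overlapping glands. Its other probe set had 193.3 and 239.4 without overlap, and neither was called.

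Of the 33 gene lists, 18 of pathways and 15 of cell types, the milk protein list stood highest, with a median log2 difference of 0.654 over 14 measured members against -0.0063 over all 6441 genes measured. Of its members 1 was called, Lalba, and 10 were higher without overlap while 1 was lower. Over all 6441 genes 8 were called higher and 2 lower, and 490 were higher and 511 lower without overlap. Over all probe sets tested the shares without overlap were 7.3% higher and 7.85% lower. These are the background for the counts of every list below. Wap, whey acidic protein, read 870, 1532 and 754.9 at day 12.5 and 6072, 5122 and 4381 at day 14.5. The days were well apart, yet the SE pools the spread over all time points, and the difference of 2.36 ± 0.78 was not called (adjusted p = 0.56, or 0.131 with the 6 arrays alone). Csn1s2b, a minor calcium-sensitive casein, read 5.4, 13.3 and 14.4 and then 44.6, 55.7 and 36.7, a difference of 1.89 with an adjusted p of 0.0595. Btn1a1, the butyrophilin of the milk fat globule membrane, had means of 360.6 and 918.2 (adjusted p = 0.187), lactoferrin (Ltf), an iron-binding milk protein, 111 and 265 (0.139), and the bile salt-stimulated lipase Cel 227 and 478.3 (0.186), all without overlap.

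The major caseins were not among the genes called. Beta-casein (Csn2) had mean signals of 3741 at day 12.5 and 3331 at day 14.5, alpha-S1-casein (Csn1s1) 7171 and 5924, and Csn1s2a 4606 and 4297, with log2 differences between -0.28 and -0.10. Kappa-casein (Csn3), which stabilises the casein micelle, stood at 3337 and 4309 without overlap. None of these caseins was called (limma adjusted p = 1 for each). The mucin Glycam1 had means of 2772 and 4796, also without overlap and not called. The SE pools the spread over all time points and was 0.96 for Csn1s1 and 0.97 for Glycam1. Intervals this wide cannot show that a gene stayed level. The 4 caseins also lie among the probe sets with a mean signal over 3000, of which 63 of 71 were lower at day 14.5. The highest signal of any probe set in the 6 glands, with controls and untested sets included, was 9661.

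**Figure D3:**
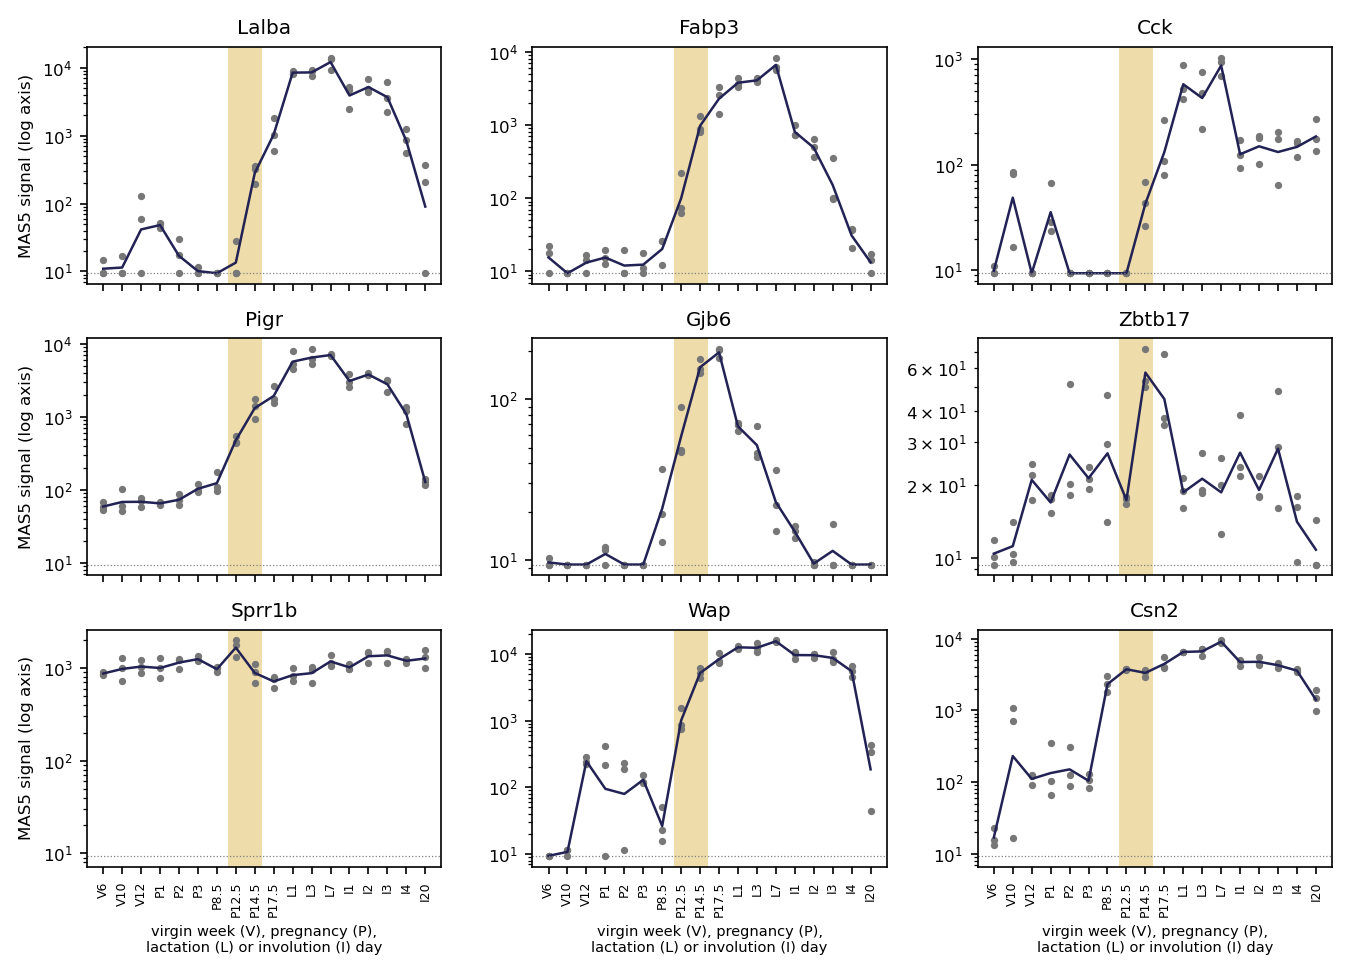
MAS5 signal on log axes over the 18 time points for 9 genes, with a point for each mouse, a line through the means and the days compared shaded. Lalba, Fabp3, Cck, Pigr and Wap have higher means on the second shaded day than on the first and their highest at lactation day 7, Csn2 has means of 3741 and 3331 on the shaded days, and Zbtb17 and Sprr1b have their highest means at day 14.5 and day 12.5.

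Genes of milk fat secretion and of lactose supply had further members apart. In the milk fat globule list 1 of 11 measured members was called (Fabp3), 4 were higher without overlap and 0 lower, with a median of 0.436. Xdh, xanthine oxidoreductase, which partners butyrophilin in droplet budding, had means of 106.7 and 171.8 and Plin2, the droplet coat protein, 1610 and 2366, both with overlapping glands. In the list of lactose synthesis and transport 1 of 21 was called (Lalba again), 6 were higher without overlap and 2 lower, and the median was 0.114. B4galt1, the galactosyltransferase that Lalba modifies, read 396.2, 510.2 and 275 and then 925, 577.1 and 778.6, a difference of 0.97 ± 0.26 that was not called (adjusted p = 0.186). The folate receptor Folr1 had means of 97.7 and 318.3 (difference 1.70, adjusted p = 0.186) and the phosphate carrier Slc34a2 31.7 and 83.5 (difference 1.40, adjusted p = 0.788).

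Of 17 fatty acid and triglyceride genes 0 were called, 1 was higher and 5 lower without overlap, with a median of -0.14. Scd1, the stearoyl-CoA desaturase, had means of 8603 and 5968, the acyltransferase Gpam 795.9 and 544.1, and fatty acid synthase (Fasn) 3487 and 2794, while the desaturase Fads1 had 432.5 and 597.7. Many of these enzymes are made by adipocytes as well as epithelium. Of 15 cholesterol synthesis genes 0 were called and 1 was lower without overlap, and the median was 0.

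The regulators of secretory differentiation had a median of 0.24 over 19 genes, with 0 called and 3 on either side without overlap. Elf5 had means of 781.8 and 1083, Stat5a 518.2 and 612.1, and Cish, a feedback inhibitor that Stat5 induces, 135.1 and 202.1, while the related inhibitor Socs2 had 232.6 and 169.9 (limma adjusted p = 1 for each). The dimmer tested probe set of Stat5a had means of 279.1 and 372.4 without overlap and was not called (limma adjusted p = 0.974). Prlr had no matched probe set and Pgr was too dim to be tested. The list of luminal signals downstream of progesterone and estrogen had 0 of 11 called, 0 higher and 5 lower without overlap, and a median of -0.322. RANK ligand (Tnfsf11) read 93.8, 89.7 and 152.3 and then 58.4, 60.4 and 67.4, a difference of -0.81 ± 0.44 that was not called. Id4, a helix-loop-helix inhibitor, had means of 198.9 and 103 (adjusted p = 0.84) and the transcriptional coactivator Cited1 146 and 96.2 (adjusted p = 1).

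Among 41 cell cycle and DNA replication genes 0 were called, yet 37 had a lower mean at day 14.5, and the median was -0.37. Of the 37, 18 were lower without overlap, against 1 member higher. Over all 6441 genes measured 3282 had a lower mean, and 511 were lower and 490 higher without overlap. Prc1, which bundles the midzone of the spindle, had means of 69 and 35, the mitotic activator Cdc20 254.4 and 159.3 and the kinase Aurkb 71.4 and 42.4, while Foxm1 had 48.8 and 102.2. The same list's median was 0.414 from day 8.5 to day 12.5 and -0.337 from day 14.5 to day 17.5. These steps share the day 12.5 or day 14.5 glands with the comparison and are given side by side. Milk proteins had medians of 0.709 and 0.618 over the same 2 steps and the progesterone list -0.102 and -0.398.

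In the secretory pathway 0 of 28 genes of translocation, folding and vesicle transport were called, with 8 higher and 1 lower without overlap and a median of 0.11. Xbp1, the transcription factor that expands the endoplasmic reticulum, read 465.8, 557.9 and 357.8 and then 859.3, 661.4 and 812.5 (difference 0.77 ± 0.21, limma adjusted p = 0.186). Gap and tight junction genes had a median of 0.0052 over 13 genes with 3 higher without overlap. Here Gjb6 is counted by its brighter, uncalled probe set, and connexin 26 (Gjb2), its usual partner in the gland, had means of 1200 and 1784. IgA and transport had 1 of 5 called, Pigr, while the IgA heavy chain (Igha, means 131.3 and 149.7) and Jchain (79.9 and 78.3) overlapped between the days. Interferon-stimulated genes had 0 of 17 called, 5 higher and 0 lower without overlap and a median of 0.244, led by the GTPases Iigp1 (125.4 and 246.6) and Igtp (57.4 and 107.4).

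The remaining pathway lists had 0 members called. Ribosomal protein genes had a median of -0.138 over 18, which became 0.0466 under quantile normalization. Respiratory chain genes stood at -0.0923 over 36 and basement membrane and matrix genes at -0.181 over 26, with Lamb1 at 179.4 and 122.9. Immediate early and stress genes had a median of -0.0985 over 23, where Egr2 read 135.6, 99.9 and 270.8 and then 86.6, 89 and 47.5 (adjusted p = 0.974). Acute phase proteins were at -0.0094 over 13, where Lcn2 had means of 718.2 and 1098 and Hp of 399.9 and 278.7, and circadian clock genes at 0.0166 over 13.

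**Figure D4:**
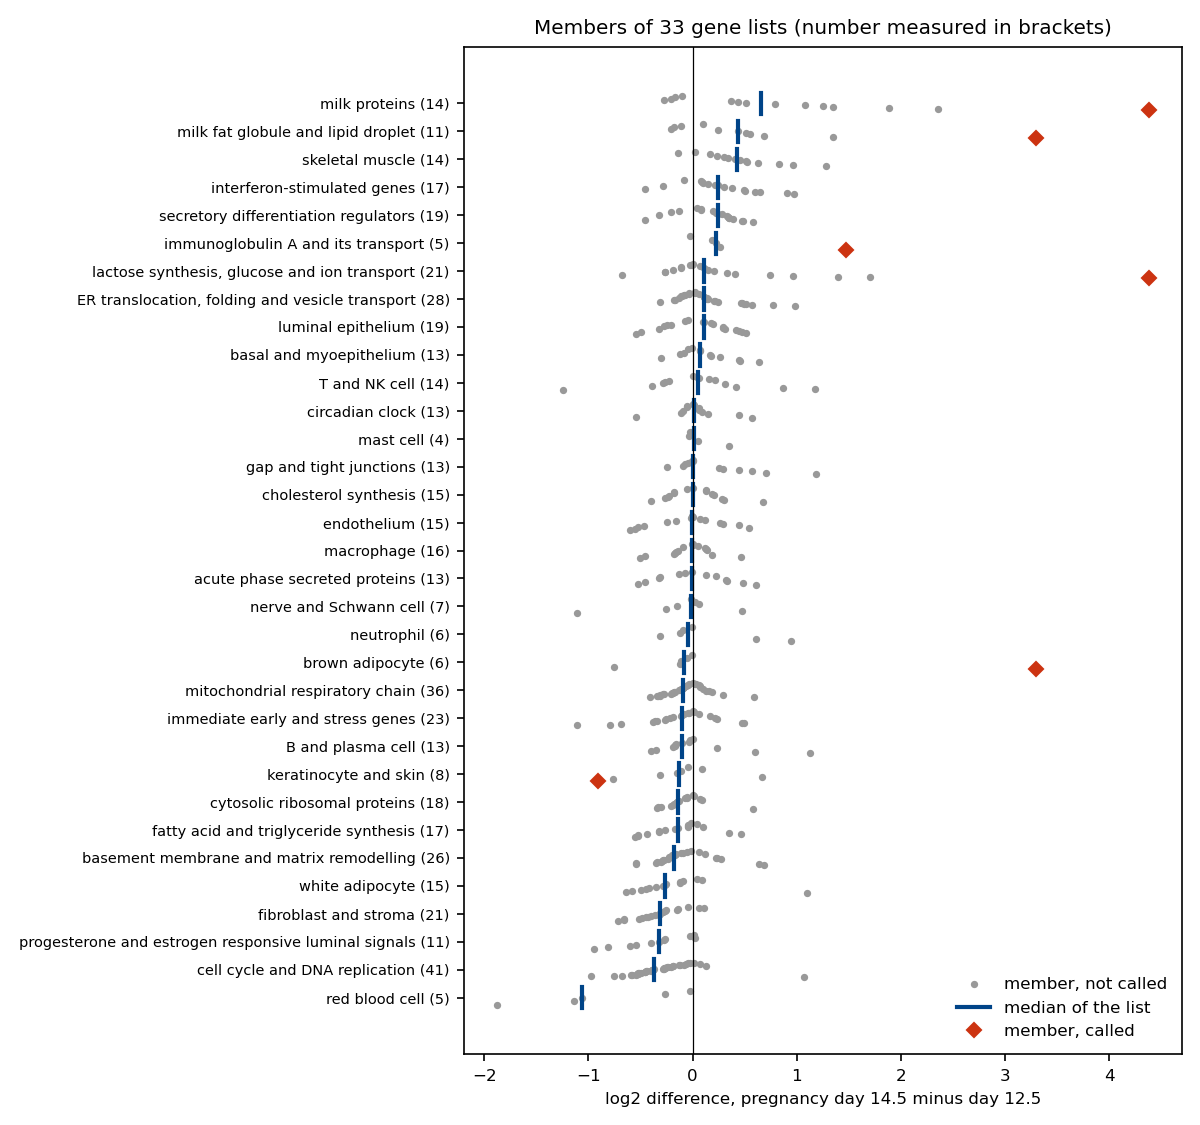
Log2 difference between day 14.5 and day 12.5 of each measured member of 33 gene lists, ordered by the list median (blue bar), with called members as red diamonds. Milk proteins have the highest median (0.654) and red blood cell genes the lowest (-1.06), and Lalba and Fabp3 appear in more than 1 list.

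Markers of the gland's cell types were described the same way, and outside Fabp3 and Sprr1b none was called. The luminal list had a median of 0.108 over 19 genes, with 5 higher and 0 lower without overlap. Its summed signal ran from 6970 to 7993 at day 12.5 and from 7924 to 9383 at day 14.5, so the groups overlapped slightly. Of the 19 genes 11 had a higher mean at day 14.5 and 8 a lower one, with differences from -0.544 to 0.516. The luminal keratins Krt8 (means 797.6 and 988.7) and Krt18 (671.7 and 894.1) were above in each day 14.5 gland. Basal and myoepithelial genes had a median of 0.0723 over 13, with the smooth muscle actin gene Acta2 at 1069 and 1012, and Krt14 was too dim to be tested. Krt5, the other defining basal keratin, was too dim as well. The luminal keratins, Acta2 and the fat marker Adipoq were well above the floor in all 6 glands.

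White adipocyte genes had a median of -0.266 over 15, with 4 lower without overlap and 0 higher. Of the 15, 12 had a lower mean and 3 a higher one. Differences ran from -0.639 to 1.1, so the largest change in the list was a rise. Their summed signal ran from 16949 to 18801 and then from 14317 to 15646, without overlap. Adiponectin (Adipoq) read 3770, 3723 and 4297 and then 2751, 3275 and 2789, a difference of -0.42 ± 0.22 that was not called. Fibroblast and stromal genes had a median of -0.316 over 21 with 9 lower and 0 higher without overlap, and sums of 21693 to 27708 and then 17817 to 20178. The collagen gene Col5a2 had means of 1509 and 920.4, the microfibril gene Mfap5 276.1 and 175.1 and fibronectin (Fn1) 407 and 285.5. Lower sums of fat and stroma thus accompany every difference above, and their part in those differences was not tested.

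Fabp3 is also on the brown adipocyte list, where 1 of 6 measured members was called, Fabp3 itself. Ucp1, the defining uncoupling protein, read 3.2, 12.8 and 8.1 and then 4.3, 12.6 and 8.6, and the list of 6 had a median of -0.085. Keratinocyte genes, the list of Sprr1b, had 1 of 8 lower by call and 3 lower without overlap, with Krt2 at means of 39 and 23 and Lor at 89.8 and 72.3, while Sprr1a stood at 16.2 and 25.7. The 7 members other than Sprr1b had a summed signal of 261.4 to 297.7 at day 12.5 and 240.1 to 256.8 at day 14.5. Red blood cell genes had the lowest median, -1.06 over 5, and all 5 were lower in mean, none without overlap. Hba-a1, an alpha-globin gene, read 6880, 6338 and 2718 and then 1974, 3721 and 1504 (adjusted p = 0.418), with day 12.5 gland C low beside its partners.

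Skeletal muscle genes varied between the glands of a day. Their sum ran from 731.8 to 3365 at day 12.5, where gland B was low, and from 1670 to 4187 at day 14.5, and the median over 14 was 0.43. Left-out glands moved it between -0.207 and 0.679. Endothelial, macrophage, T and NK, B and plasma, neutrophil, mast and nerve lists had medians of -0.0005, -0.0005, 0.0555, -0.102, -0.0478, 0.0139 and -0.0135, each with at most 2 members apart in either direction. In the B-cell list 4 of 13 measured members had a higher mean at day 14.5 and 9 a lower one. Among the higher ones, the immunoglobulin M heavy chain (Ighm) had means of 151.8 and 230.

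Whether this step differs from its neighbours was tested in the same fit. Against the step from day 8.5 to 12.5, 0 probe sets were called (0%) by limma, and 268 had an unadjusted p under 0.05. For Lalba the difference between the steps was 3.87 (adjusted p = 1), and for Wap, which went from a mean of 26.3 at day 8.5 to 1002 at day 12.5, it was -2.89 (adjusted p = 1). Against the step from day 14.5 to 17.5, 1 probe set was called (0.0116%), that of the cytokine gene Tnf. Tnf read 6.7, 13.2 and 19.1 at day 12.5 and 42.8, 35.8 and 34.5 at day 14.5, with means at or near the floor at day 8.5 (9.4) and day 17.5 (9.92). The next step minus this one was -3.41 ± 0.66 (limma adjusted p = 0.0498), while Tnf was not called between days 12.5 and 14.5 (adjusted p = 0.129). Of 9 fits that left out 1 gland of these days, 8 gave 0 calls against the next step, all but the one without day 12.5 gland C. The call was also lost with a floor of 1 and with the beta-actin ratio or Arl2bp as covariate. The steps span unequal numbers of days.

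Glands at day 8.5 and day 17.5, whose means the comparison did not use, gave a second look at the 13 probe sets. Their spread did enter the pooled SE, which is the same for a probe set in either contrast (Fabp3, 0.41). Probe sets called partly for a small SE are favoured again, so the second look is not independent. The contrast of day 17.5 with day 8.5 was added after the values had been seen. In it 1975 of all probe sets were called (22.9%), 1011 higher at day 17.5 (11.7%) and 964 lower (11.2%). Of the 10 probe sets higher at day 14.5, 9 were called higher at day 17.5 than at day 8.5, and of the 3 lower ones 1 was called lower. Fabp3 differed by 6.84 on the log2 scale (limma adjusted p = 1.2e-16), Lalba by 6.80, Pigr by 3.98, Rgs8 by 3.96, Cck by 3.81, Gjb6 by 3.23, 161227_r_at by 2.77, Fam20c by 2.63 and Rfk by 2.01, and 103989_at by -1.46. Zbtb17 (0.74, adjusted p = 0.144), Sprr1b (-0.44, 0.101) and the Ddb1 probe set among the 13 (-0.30, 0.102) were not called. The other tested probe set of Ddb1 went the other way, by 0.83, and was called higher at day 17.5 (limma adjusted p = 0.0126). Arl2bp signals were 73, 90.3 and 547 at day 8.5 and 521.2, 77 and 594.8 at day 17.5, so unlike the 6 glands compared these days mix its levels. With the Arl2bp signal as a covariate 1706 probe sets were called between these days, and 10 of the 13 were still called the same way.

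Over the 18 time points most risen genes went on to a peak in lactation. Lalba reached a mean of 12156 at lactation day 7, Fabp3 6660, Pigr 7065, Cck 869.8, Rfk 1540 and 161227_r_at 3414, each its highest, and Fam20c was highest at lactation day 1 (723.6). Gjb6 and Rgs8 had their highest means at pregnancy day 17.5, at 196.1 and 195.3. Zbtb17 had its highest mean of all at day 14.5 itself (57.5) and 103989_at at virgin week 6 (39.8). Sprr1b had its highest at day 12.5 and ranked 14 of 18 at day 14.5. The called probe set of Ddb1 went from rank 5 to rank 15, with its highest mean at involution day 1 (1502).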

How the data were processed

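Per the submitters' processing notes the authors computed the deposited intensity values, 1 signal per probe set and array, with MAS5 (version not given in the labels used). The table was on a linear scale, and each array's 2% trimmed mean lay between 100.05 and 100.07. Of 12488 probe sets, 66 controls were left out. Signals under 9.4, the 25th percentile, were set to 9.4 before log2. A probe set was tested where all 3 arrays of at least 1 time point passed 22.8, the 40th percentile, which left 8640. Of these, 16 passed through day 12.5 or 14.5 alone. Genes came from the platform annotation (10833 non-control probe sets with 1 symbol, 396 with several, 1193 with none). 0 symbols changed against RefSeq.

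limma 3.58.1 in R 4.3.3 fitted 1 mean per time point to the 54 arrays, with an intensity trend (residual degrees of freedom 36, prior 6.8). All tests were two-sided with Benjamini-Hochberg adjustment over all probe sets tested, called under 0.05. Errors are standard errors. Mice are the replicates, and their number limits precision. The pipeline was tested on simulated data. Figures were drawn with matplotlib 3.10.9 (Python 3.11.15, numpy 2.4.6, pandas 2.3.3).

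The comparison and the lists were chosen with earlier results of these data known. Named genes were the 12 largest rises and 12 largest falls among called probe sets with 1 symbol and no overlap, up to 4 members of each list, and 19 fixed genes. A gene stands by its brightest tested probe set unless a called one is named. Genes named in the text outside this rule, among them Tnf, Rgs16, Ndrg1 and Fkbp11, were chosen after their values were seen. Lists are described by counts and medians, without a test. Alternatives were the floor, quantile and median scaling, no filter, 1 probe set a gene, the 6 arrays alone, no trend, array weights, a replicate block, each array left out and, added after the data were seen for Arl2bp, the beta-actin ratio or Arl2bp as covariate.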

Additional observations from a re-analysis of the deposited data

How the results depend on the processing

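The 13 calls, 10 higher and 3 lower, became 5, 5 and 0 with no floor other than 1, 30, 21 and 9 when the 40th percentile was the floor, 929, 505 and 424 with array weights, and 0, 0 and 0 with the 6 arrays alone, where 867 probe sets had an unadjusted p under 0.05. Without the filter 8 were called, 6 of them higher. Median scaling gave 16 higher, and no intensity trend gave 1 lower. Leaving out 1 gland gave 3 to 9 calls, 3 to 6 higher and 0 to 3 lower. The letters A, B and C were not treated as pairs. Same-letter deviations correlated at -0.0214, -0.192 and -0.0495, and the letter as a replicate block gave 15 calls. Deviations around a mean of 3 glands cannot decide whether a letter marks mice handled together. Against the step before, 0 calls became 1 without the filter, 842 with array weights and 1 with the beta-actin ratio as covariate, and 0 to 2 with a gland left out. The 1 call against the next step became 0 with no floor, with the beta-actin ratio and with Arl2bp as covariates, 29 with array weights and 0 to 1 with a gland left out, 0 in 8 of 9 such fits. Day 17.5 against day 8.5 gave 1088 to 2423 calls with a gland left out, with 1088 without day 8.5 gland A, 1180 without day 8.5 gland C and 1195 without day 17.5 gland A. Csn1s2a turned from -0.10 to 0.0213 with quantile normalization, 0.00724 with the beta-actin ratio and 0.0325 without day 14.5 gland C, and lay between -0.185 and 0.0325 over the 6 leave-outs. Of the other values for single named probe sets under an alternative, 418 kept direction and side of the threshold, 78 lost the call and 3 gained it, namely Wap, Elf5 and Adipoq with array weights. Only the 13 called probe sets could lose a call, and the 418 include fixed genes that were not called to begin with. Of the 13, Ddb1, Rfk and Rgs8 were called in 8 of 18 alternatives, and Fabp3, Lalba and 161227_r_at in 17 of 18. Array weights were 7.39, 1.07 and 0.679 for glands A, B and C of day 12.5, so the weighted mean of that day rests mostly on gland A. At day 14.5 they were 1.85, 1.28 and 2.56. Why the weights raise the counts was not tested. Depth on an array is its signal over background: all 3 glands for Cck and 2 of 3 for Lalba lie under the floor at day 12.5, so their folds depend on it.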

Other observations

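Among the 105 probe sets that differed by more than 1 on the log2 scale, 57 were higher at day 14.5 and 48 lower, and the glands did not overlap for 41 and 34 of them. The following genes were picked from these after their values were seen, and none was called. Ubd, a ubiquitin-like modifier induced by interferon, had means of 115.8 and 346.1 (difference 1.58 ± 0.53, limma adjusted p = 0.609). Lower at day 14.5 were Adm, the vasodilator peptide adrenomedullin, with means of 54.4 and 18.5 (difference -1.56 ± 0.43, adjusted p = 0.186), the BMP antagonist Nbl1 with 53.8 and 16.1 (adjusted p = 0.636), and Cyp2e1, a cytochrome P450, with 4165 and 1896 (adjusted p = 0.899). Ndrg1, a stress-responsive gene of differentiating cells, read 406.5, 394.9 and 619.6 and then 796.7, 730.3 and 755.8.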
